A study of Homo sapiens with 6 samples.

Results

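This section describes 10 genes that set the pace of the G1 phase of the cell cycle: the D-type cyclins CCND1, CCND2 and CCND3, the E-type cyclins CCNE1 and CCNE2, the cyclin-dependent kinases CDK4 and CDK6, and the Cip/Kip kinase inhibitors CDKN1A, CDKN1B and CDKN1C. They were chosen by name and are 10 of 35130 gene names in each library. The libraries are RNA-seq of SK-N-BE(2), an established human neuroblastoma line with amplified MYCN. The labels give bone marrow as its source. Cells in dishes were exposed for 24 h to 1 µM NEN or to its solvent DMSO, in 3 libraries per group that the labels call biological replicates. NEN is given by its abbreviation alone; papers on neuroblastoma use it for niclosamide ethanolamine, which uncouples mitochondrial respiration, and this is taken as background. All 6 libraries come from 1 cell line, and nothing in the labels says whether the replicates were grown on separate days, so p-values measure the spread between these samples alone.

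In G1, mitogenic signals raise D-type cyclins, which bind CDK4 or CDK6 and start the phosphorylation of the retinoblastoma protein. That releases E2F factors, which switch on the E-type cyclins; these bind CDK2 and carry the cell into S phase. The Cip/Kip proteins p21 (CDKN1A), p27 (CDKN1B) and p57 (CDKN1C) bind cyclin-kinase complexes and inhibit CDK2 complexes above all, while p21 and p27 also help D-type cyclins assemble with CDK4. In neuroblastoma, high cyclin D1 and CDK4 are common, and p27 is governed largely by protein turnover, which mRNA does not show.

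After NEN, mRNA of the E-type cyclins fell most, that of the D-type cyclins, CDK4 and CDKN1A fell less, CDK6 did not pass the test and CDKN1B rose. Of the 10 genes, 8 averaged 1 TPM or more (a transcript level scaled for transcript length and library total) over the 6 libraries and were tested. Of these 8, 6 fell and 1 rose at an adjusted p under 0.05 in limma, a linear model fitted to all 12576 tested genes with Benjamini-Hochberg adjustment. Over all tested genes the same threshold called 30.0%, with 13.5% higher and 16.5% lower. The groups did not overlap for 7 of the 8 members, with NEN below DMSO for 6 and above it for 1. Over all tested genes that was so for 46.8%, with NEN below for 25.0% and above for 21.8%. The members were chosen with earlier results of these data known, so their share against this background is a description. Differences below are NEN less DMSO, taken on the log2(TPM + 1) scale, with their SE, and levels are in TPM as mean ± SD over 3 libraries.

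**Figure D1:**
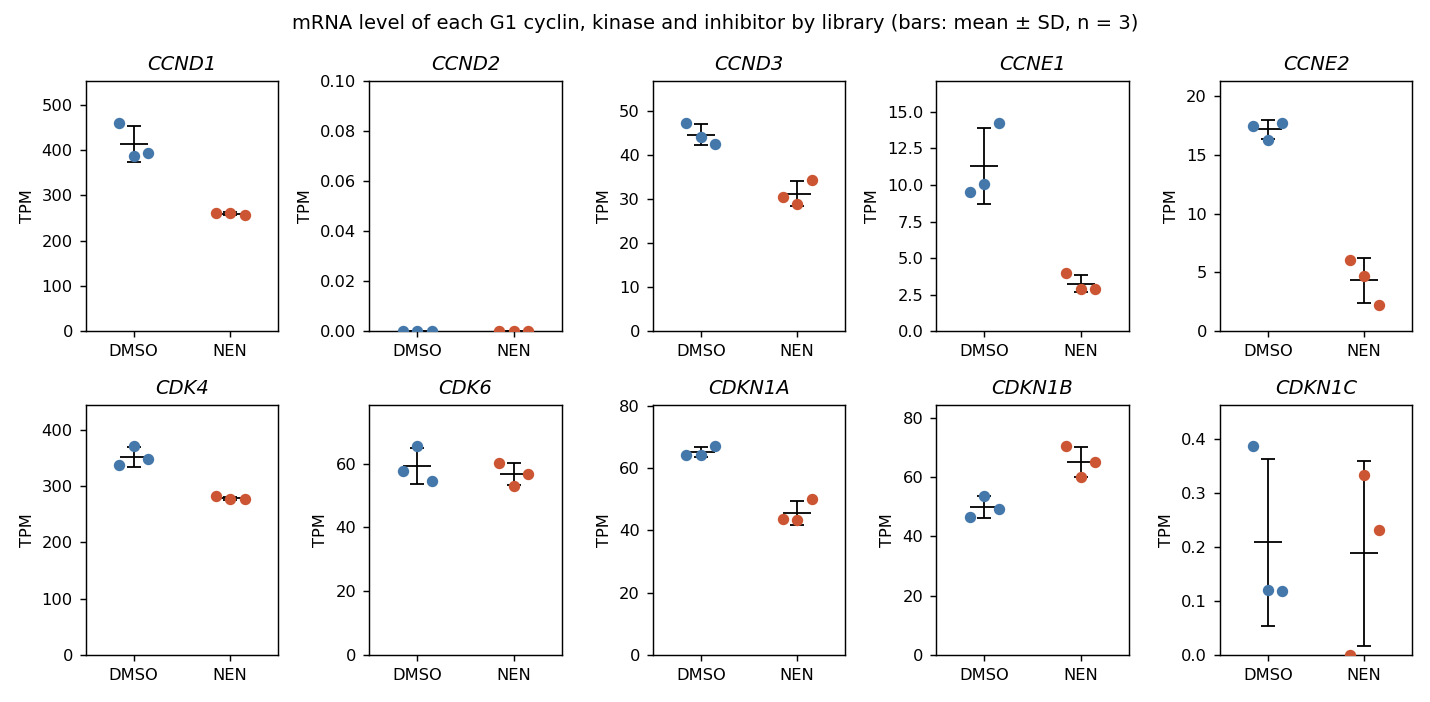
Level in TPM (vertical axis, starting at 0, own scale per gene) of the 10 genes in each DMSO (blue) and NEN (red) library, with replicates 1 to 3 from left to right and the mean ± SD in black. CCND1, CCND3, CCNE1, CCNE2, CDK4 and CDKN1A have all NEN points below all DMSO points, CDKN1B has them above, and CDK6 and CDKN1C overlap, while CCND2 is listed at 0 throughout.

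Some library-wide values differed in ways that go along with the groups. The listed genes summed to 932109 to 933500 TPM in DMSO and to 929054 to 929189 TPM in NEN libraries. Between 17285 and 18041 genes lay above 0 in DMSO and between 17294 and 17820 in NEN libraries, so these counts overlapped. TPM keeps no read counts, so depth is unknown. mRNAs of mitochondrial DNA took 9.53% to 11.6% of the summed TPM in DMSO and 7.49% to 8.56% in NEN libraries. All 10 reported markers of neuroblastoma, such as CHGA and DBH, averaged 1 TPM or more, while 0 of 8 blood and 0 of 4 endothelial markers did. The blood markers, such as PTPRC, summed to 0.534 to 1.01 TPM in DMSO and 0.283 to 0.413 TPM in NEN, with CD3E, MPO and HBB at 0, and the endothelial ones to 0.690 to 1.12 TPM and 0.901 to 1.90 TPM, with KDR at 0. Of 6 stromal markers 4 reached 1 TPM, none was at 0, and their sum was 16.1 to 20.9 TPM in DMSO and 25.9 to 31.2 TPM in NEN libraries. PDGFRB alone of them was called, rising from 10.1 ± 2.1 to 22.0 ± 2.5 TPM (SD, n = 3 per group; limma adjusted p = 0.00326), while COL1A2, DCN, COL3A1 and LUM had lower means in NEN and COL1A1 was at 1.78 and 2.06 TPM. Epithelial markers summed to 4.84 to 7.88 TPM in DMSO and 4.41 to 8.04 TPM in NEN, with KRT5 and KRT14 at 0, and Schwann cell markers to 1.93 to 3.35 TPM and 1.47 to 3.44 TPM. The part of the mitochondrial share in the results below was not tested.

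CCND1 encodes cyclin D1, the mitogen-induced partner of CDK4 and CDK6. Its level was 461, 388 and 393 TPM in DMSO replicates 1 to 3 and 262, 261 and 256 TPM in NEN replicates 1 to 3. Every NEN library lay below every DMSO library, and the NEN libraries were close together while DMSO replicate 1 stood above the other DMSO libraries. The mean went from 414.0 ± 40.5 to 259.6 ± 3.4 TPM, a difference of -0.67 ± 0.07 (adjusted p = 0.00114) and a mean lower by 37.3%. CCND1 was the most abundant of the 10 genes in DMSO and stood above 97.7% of all tested genes there.

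CCND3 encodes cyclin D3, a D-type cyclin best known from lymphoid and muscle cells. It had 47.3, 44.0 and 42.4 TPM in DMSO and 30.4, 28.7 and 34.3 TPM in NEN libraries. The groups did not overlap, and the nearest libraries of the groups, DMSO replicate 3 and NEN replicate 3, were still apart. The difference was -0.51 ± 0.09 (adjusted p = 0.00620). CCND2, which encodes cyclin D2, was listed at 0 TPM in all 6 libraries, as were the listed pseudogenes CCND2P1, CCND3P1 and CCND3P2, and it was not tested. In GENCODE release 29 the exons of CCND2 share 989 bases on the same strand with AC008012.1, which is not among the gene names listed. In files without counts a value of exactly 0 can be a failed estimate, so only the listing is given.

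The D-type cyclins together stood at 507.9, 432.2 and 435.7 TPM in DMSO and at 292.2, 290.1 and 290.0 TPM in NEN libraries. CCND1 made up 90.3% ± 0.4 of that sum in DMSO and 89.3% ± 1.0 in NEN, and these shares overlapped between the groups. The mean of the sum was lower by 36.6%.

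The E-type cyclins had the largest falls among the 10 genes. CCNE1, which encodes cyclin E1, had 9.51, 10.1 and 14.3 TPM in DMSO and 3.97, 2.90 and 2.92 TPM in NEN libraries. The NEN libraries were all far below the DMSO range, and DMSO replicate 3 was the highest. The mean went from 11.3 ± 2.6 to 3.26 ± 0.61 TPM, which is 3.46-fold lower, with a difference of -1.52 ± 0.19 (95% interval -1.95 to -1.08, adjusted p = 0.00171).

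CCNE2, which encodes cyclin E2, the other partner of CDK2 at the entry to S phase, had 17.5, 16.3 and 17.7 TPM in DMSO and 6.02, 4.70 and 2.27 TPM in NEN libraries. DMSO libraries were close together, whereas the NEN libraries spread over a wide range for their level, with replicate 3 lowest. The mean went from 17.2 ± 0.8 to 4.33 ± 1.90 TPM, or 3.97-fold lower, with a difference of -1.84 ± 0.26 (95% interval -2.46 to -1.22, adjusted p = 0.00290). Of 12576 tested genes ordered from the lowest difference up, CCNE2 was number 29 and CCNE1 number 56; a fall of at least 1 on this scale was called for 1.26% of tested genes.

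CCNE1 and CCNE2 together stood at 27.0, 26.4 and 32.0 TPM in DMSO and at 9.99, 7.60 and 5.18 TPM in NEN libraries. CCNE2 made up 60.7% ± 4.8 of that sum in DMSO and 55.3% ± 10.0 in NEN, with overlapping groups. In NEN replicate 3 the order of the pair turned, with CCNE2 at 43.7% of the sum, while it was above CCNE1 in the other 5 libraries. In GENCODE release 29 the exons of CCNE2 share 1629 bases with INTS8 on the opposite strand. INTS8, a subunit of the Integrator complex, rose from 32.4 ± 3.7 to 44.0 ± 3.3 TPM (0.44 ± 0.10, adjusted p = 0.0195), opposite in direction to CCNE2. Whether the libraries kept strand is not given in the sources used here, so reads from the shared bases could be assigned to either gene.

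**Figure D2:**
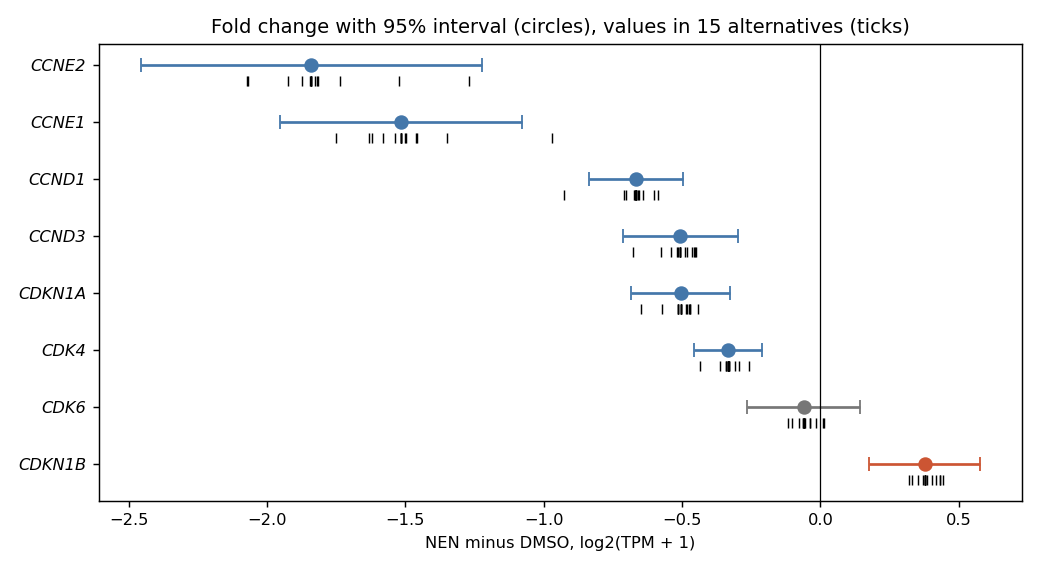
Difference between NEN and DMSO in log2(TPM + 1) (horizontal axis, NEN minus DMSO) for the 8 tested genes, with circles for the value, bars for its 95% interval and black ticks for the value in 15 alternative analyses. Blue marks genes that fell, red the one that rose and grey the one that was not called. CCNE2 (-1.84) and CCNE1 (-1.52) lie farthest from 0, the intervals of CCND1, CCND3, CDKN1A and CDK4 lie below 0, that of CDK6 spans 0, and that of CDKN1B lies above it.

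CDK4, the main D-cyclin kinase of this line by mRNA, had 337, 371 and 348 TPM in DMSO and 282, 278 and 277 TPM in NEN libraries. All NEN libraries lay below the DMSO libraries and within a narrow band. The difference was -0.33 ± 0.05 (adjusted p = 0.00407), a mean lower by 20.8%. The exons of CDK4 share 1369 bases with TSPAN31 on the opposite strand in GENCODE release 29. TSPAN31, a tetraspanin gene, was at 11.7 ± 2.0 TPM in DMSO and 15.3 ± 2.8 TPM in NEN (0.35 ± 0.17, adjusted p = 0.155).

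CDK6 encodes the second kinase that D-type cyclins activate. Its level was 57.7, 65.4 and 54.6 TPM in DMSO and 60.1, 53.1 and 56.9 TPM in NEN libraries. The groups overlapped, with DMSO replicate 2 highest and NEN replicate 2 lowest. The difference of -0.06 ± 0.09 had a 95% interval from -0.26 to 0.14 (adjusted p = 0.637), so a fall or a rise within these bounds was not detectable.

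CDK4 made up 85.6% ± 0.7 of the summed mRNA of both kinases in DMSO and 83.1% ± 0.8 in NEN, and these shares did not overlap. The ratio of summed D-type cyclins to summed CDK4 and CDK6 was 1.29, 0.991 and 1.08 in DMSO and 0.855, 0.877 and 0.870 in NEN libraries. Cyclin mRNA was thus above or about equal to kinase mRNA in DMSO and below it in each NEN library. The order of CCND1 and CDK4 turned as well: CCND1 was above CDK4 in each DMSO library and below it in each NEN library.

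The 250 bases before the start of CDK4 are shown because they hold a feature that few start regions have. They lie on the minus strand at chr12:57752311-57752560 in GRCh38.p14 (RefSeq promoter table, a different build from that of the files), and the capitals mark CACGTG, the E-box bound by MYC-family and other basic helix-loop-helix factors.
CDK4: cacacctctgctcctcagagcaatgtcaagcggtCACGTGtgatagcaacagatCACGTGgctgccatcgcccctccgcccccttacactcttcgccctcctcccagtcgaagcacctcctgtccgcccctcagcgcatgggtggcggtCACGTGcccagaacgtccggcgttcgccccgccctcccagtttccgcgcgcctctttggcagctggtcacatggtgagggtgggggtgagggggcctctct
CACGTG reads the same on both strands, and it begins 216, 196 and 101 bases before the start. At least 1 match was found in 6.34% of 35116 start regions of the same length, and at least 3 in 0.0797%. Among the 6 members with an entry in the table (CCND3, CCNE1, CDK4, CDK6, CDKN1A and CDKN1B), CDK4 alone held this motif. MYCN, the amplified MYC-family gene of this line, was higher in NEN (0.33 ± 0.08, adjusted p = 0.0169) while CDK4 was lower. A match in sequence is no evidence of binding, and whether MYCN acts on CDK4 in these cells was not tested.

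CDKN1A, which encodes p21, fell together with the cyclins. It had 64.1, 64.0 and 66.9 TPM in DMSO and 43.5, 43.3 and 50.0 TPM in NEN libraries. The groups did not overlap, and NEN replicate 3 was the highest of its group. The difference was -0.51 ± 0.08 (adjusted p = 0.00358), a mean lower by 29.9%.

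CDKN1B, which encodes p27, was the only member called higher. It had 46.5, 53.7 and 49.4 TPM in DMSO and 70.3, 60.1 and 65.0 TPM in NEN libraries. Every NEN library was above every DMSO library, with the closest values in DMSO replicate 2 and NEN replicate 2. The mean went from 49.9 ± 3.6 to 65.1 ± 5.1 TPM, a difference of 0.38 ± 0.09 (adjusted p = 0.0158) or 30.6% of the DMSO mean. The value was 0.32 without NEN replicate 1 (limma adjusted p = 0.0536) and 0.38 without NEN replicate 3 (limma adjusted p = 0.0503), which ends the call in each case, while the value kept its sign in all 15 alternatives (0.32 to 0.44).

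CDKN1C, which encodes p57, an imprinted gene known for its part in leaving the cell cycle during development, was near the floor. It was listed at 0.386, 0.120 and 0.119 TPM in DMSO and at 0, 0.334 and 0.231 TPM in NEN libraries, with overlapping groups, and was below the filter. Of the 10 genes of its imprinted region that were found, 4 were tested, of which NAP1L4, a histone chaperone gene, fell by 0.43 ± 0.07 and CD81, a tetraspanin gene, rose by 0.23 ± 0.07. IGF2, the growth factor gene of that region, was high in both groups (-0.03 ± 0.05, adjusted p = 0.699).

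The summed inhibitors overlapped between the groups, while their makeup did not. CDKN1A, CDKN1B and CDKN1C together stood at 111.0, 117.9 and 116.4 TPM in DMSO and at 113.8, 103.7 and 115.2 TPM in NEN libraries, and the groups overlapped. CDKN1A held 56.5% ± 1.9 of the sum in DMSO and 41.1% ± 2.7 in NEN, while CDKN1B held 43.3% ± 2.0 and 58.7% ± 2.8. CDKN1B was below CDKN1A in each DMSO library, with ratios of 0.725, 0.839 and 0.738, and above it in each NEN library, with ratios of 1.62, 1.39 and 1.30.

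Set against the cyclins, inhibitor mRNA was higher in NEN. The ratio of summed inhibitors to summed D-type cyclins was 0.219, 0.273 and 0.267 in DMSO and 0.390, 0.357 and 0.397 in NEN libraries. To the summed E-type cyclins it was 4.11, 4.47 and 3.64 in DMSO and 11.4, 13.6 and 22.2 in NEN libraries. Neither ratio overlapped between the groups, and neither did the cyclin sums, whereas the inhibitor sums did. These ratios compare mRNA levels per length and say nothing of the amounts of protein.

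**Figure D3:**
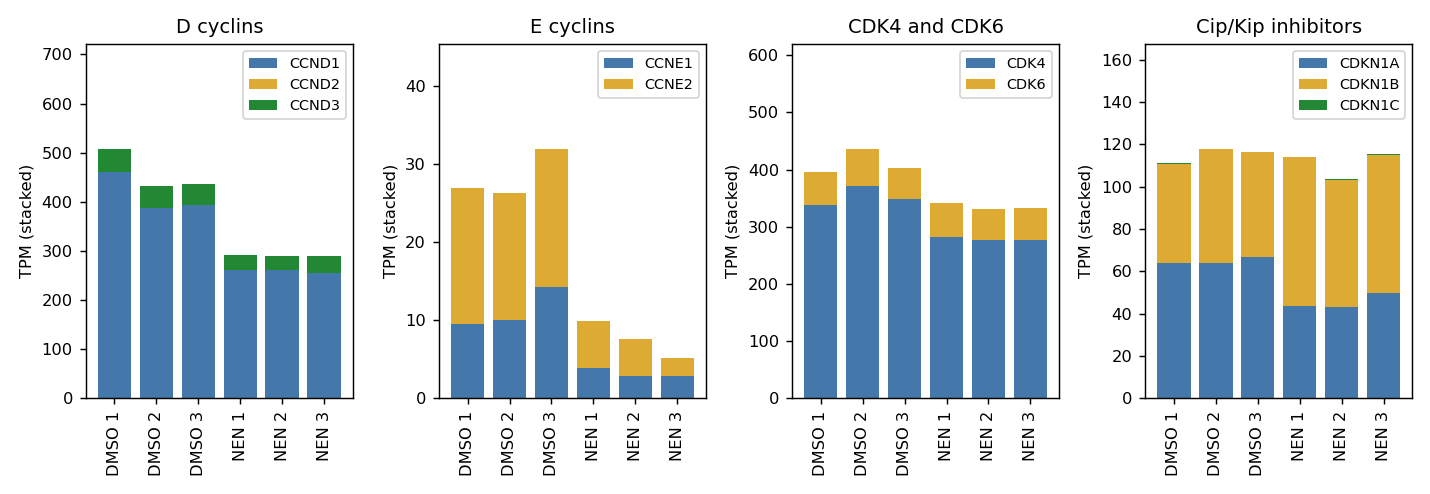
Stacked level in TPM (vertical axis, from 0) of each family in the 6 libraries, with 1 bar per library and 1 colour per gene. The bars of the D-type cyclins (290 to 292 TPM in NEN) and E-type cyclins (5.18 to 9.99 TPM in NEN) are shorter in every NEN library, while those of the Cip/Kip inhibitors overlap and change in the split between CDKN1A and CDKN1B.

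The start regions of CDKN1B, which rose, and of CDKN1A and CCNE1, which fell, are shown. Each runs over the 250 bases before the start in GRCh38.p14, on the plus strand, at chr6:36678464-36678713 for CDKN1A, chr12:12717118-12717367 for CDKN1B and chr19:29811741-29811990 for CCNE1. Capitals mark CCAAT boxes in CDKN1B and GGGCGG, the GC box bound by SP1-family factors, in the other genes, on either strand.
CDKN1A: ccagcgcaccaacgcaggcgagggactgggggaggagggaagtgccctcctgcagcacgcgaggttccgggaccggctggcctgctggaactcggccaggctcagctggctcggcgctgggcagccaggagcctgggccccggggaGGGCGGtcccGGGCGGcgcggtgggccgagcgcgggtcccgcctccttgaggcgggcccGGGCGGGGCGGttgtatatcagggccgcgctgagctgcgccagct
CDKN1B: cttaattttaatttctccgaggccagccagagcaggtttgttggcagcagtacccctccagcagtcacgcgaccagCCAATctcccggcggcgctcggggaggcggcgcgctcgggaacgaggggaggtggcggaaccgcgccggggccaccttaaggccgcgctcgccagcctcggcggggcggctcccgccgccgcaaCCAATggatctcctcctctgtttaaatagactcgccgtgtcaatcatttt
CCNE1: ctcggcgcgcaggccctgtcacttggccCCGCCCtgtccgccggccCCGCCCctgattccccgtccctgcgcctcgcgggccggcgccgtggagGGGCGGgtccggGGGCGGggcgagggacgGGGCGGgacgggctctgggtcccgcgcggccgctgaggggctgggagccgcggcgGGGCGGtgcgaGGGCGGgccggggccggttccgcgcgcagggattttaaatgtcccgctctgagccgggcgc
CCNE1 held 7 GC boxes and CDKN1A held 4, of which the last pair overlaps by 1 base. Of all start regions 42.6% held at least 1 and 13.9% at least 3. The CCAAT boxes of CDKN1B begin 174 and 50 bases before the start, and at least 2 such boxes were found in 9.53% of regions. CDKN1B also held 1 GC box, 71 bases before the start and not capitalised, and all 6 members with an entry held at least 1. CCND3, which fell, held CCAAT boxes 136 and 64 bases before 2 of its starts. The E2F letters TTTGGCGC, TTTCCCGC, TTTCGCGC and TTTGCCGC were in 0 of the 9 regions of members with an entry and in 2.79% of all regions. The FOXO letters TGTTTAC were likewise in 0 of 9 and in 2.98% of all, and the ATF4 letters TGATGNAA in 0 of 9 and in 3.14% of all. The CRE letters TGACGTCA (1.65% of all regions), the TCF letters CTTTGAT and CTTTGAA (5.94%) and the AP-1 letters TGANTCA (6.57%) had 0 matches in the 9 regions as well. CCND1, CCND2, CCNE2 and CDKN1C had no entry in the table. At shares this low 0 of 9 is an unremarkable count, and the 9 regions come from only 6 members. The search took exact letters within 250 bases, so a binding site with other letters or farther away would be missed.

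Ordered by level per length, CCND1 and CDK4 led in both groups, far above the other members. In DMSO there followed CDKN1A (65.0 ± 1.6 TPM), CDK6 (59.3 ± 5.5), CDKN1B (49.9 ± 3.6), CCND3 (44.6 ± 2.5), CCNE2 (17.2 ± 0.8) and CCNE1 (11.3 ± 2.6). Of these neighbours CDKN1A and CDK6 overlapped in their libraries, as did CDKN1B and CCND3. In NEN the order below CDK4 and CCND1 was CDKN1B (65.1 ± 5.1 TPM), CDK6 (56.7 ± 3.5), CDKN1A (45.6 ± 3.9), CCND3 (31.1 ± 2.9), CCNE2 (4.33 ± 1.90) and CCNE1 (3.26 ± 0.61). There CDKN1B and CDK6 overlapped by a narrow margin, and CCNE2 and CCNE1 overlapped. A lower level of a transcript per cell and fewer cells in the phase that makes it cannot be told apart in bulk RNA.

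**Figure D4:**
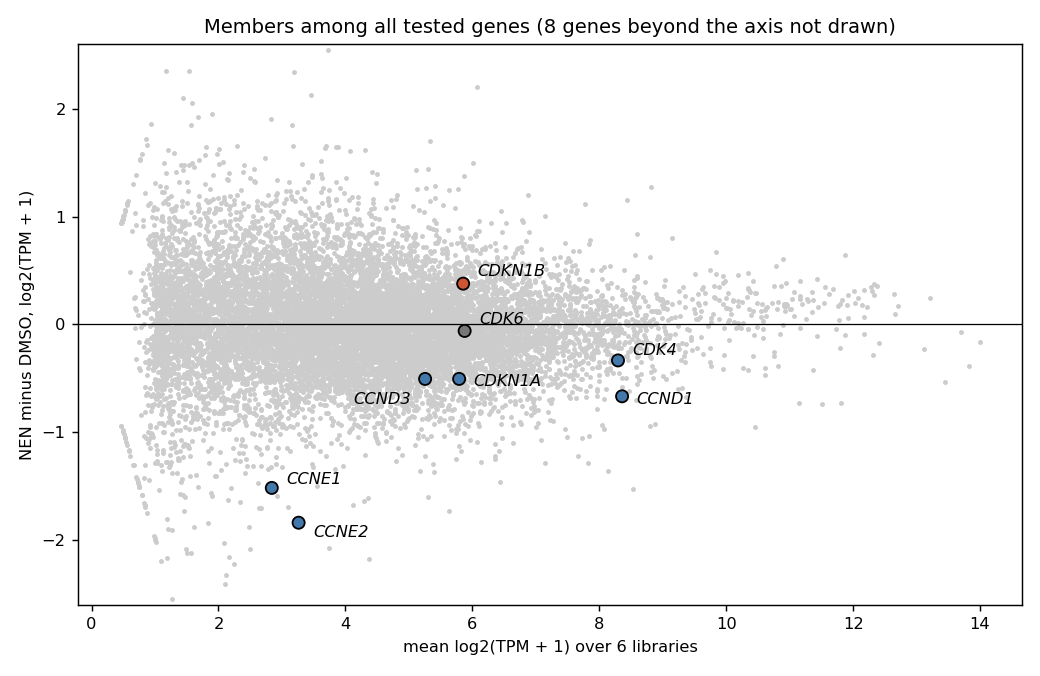
Mean log2(TPM + 1) over the 6 libraries (horizontal axis) against NEN minus DMSO on that scale (vertical axis) for all tested genes in grey, with the 8 tested members as large points (blue fell, red rose, grey not called); 8 genes beyond the axis are not drawn. CCNE1 and CCNE2 lie at the lower edge of the cloud at low levels, CCND1 and CDK4 at its lower side among abundant genes, and CDK6 near 0.

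CDK2, the partner of E-type cyclins, fell too, from 30.2 ± 2.5 to 20.1 ± 0.8 TPM (-0.57 ± 0.09, adjusted p = 0.00420). Among CDK2 and the activators of G1 kinases 2 of 10 rose and 2 fell. The share called was 40.0% beside 30.0% of all tested genes, with a median of -0.10 against -0.02. The other fall was that of CDC25A, the phosphatase that activates CDK2 (-0.74 ± 0.09, adjusted p = 0.00171). CNPPD1, a cyclin-fold protein, rose by 0.49 ± 0.07 and CDC25B, a phosphatase acting mainly at mitosis, by 0.26 ± 0.06. The ratio of CDK2 to the summed E-type cyclins was 1.22, 1.05 and 0.940 in DMSO and 2.01, 2.75 and 3.72 in NEN libraries, which did not overlap. CCNH, CDK7 and MNAT1, the parts of the CDK-activating kinase, did not pass the test (0.01 ± 0.10, -0.09 ± 0.72 and -0.09 ± 0.18). CDK7 had 25.8, 7.03 and 4.37 TPM in DMSO and 3.76, 7.50 and 22.5 TPM in NEN libraries. With this spread within both groups, its value cannot tell a rise, a fall or no change apart.

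Among the other inhibitors, none of the INK4 genes was called by limma. INK4 proteins bind CDK4 and CDK6. Levels are given per gene name, so the different transcripts of CDKN2A are not told apart. CDKN2A was at 253 ± 9.5 TPM in DMSO and 279 ± 13.1 TPM in NEN (0.14 ± 0.06, limma adjusted p = 0.0999). CDKN2C was at 0.18 ± 0.06 (limma adjusted p = 0.0633) and CDKN2B at 0.47 ± 0.26 (limma adjusted p = 0.207). CDKN2D was at 0.14 ± 0.13 (limma adjusted p = 0.443). Every NEN library lay above every DMSO library for CDKN2A, CDKN2B and CDKN2C, as for 21.8% of all tested genes, while CDKN2D overlapped. Of the 7 genes in this list 0 rose and 2 fell, a share called of 28.6% beside 30.0% of all tested genes. Their median was 0.14. At an unadjusted p under 0.05 in limma 3 were higher, CDKN2A and CDKN2C among them, and 2 lower. The falls were those of CDK2AP1, a CDK2-associated protein (-0.49 ± 0.09, adjusted p = 0.00815), and CDKN3, a phosphatase of CDK2 and CDK1 despite its name (-0.25 ± 0.06, adjusted p = 0.0180). The difference between these responses and those of CDKN1A or CDKN1B was not tested.

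Downstream of the D-type cyclins, 11 of 18 pocket protein, E2F and DREAM complex genes fell and 3 rose. The share called was 77.8% beside 30.0% of all tested genes, with a median of -0.38. TFDP1, the dimer partner of E2F factors, fell by 0.77 ± 0.05, E2F1 by 0.72 ± 0.07 and E2F2 by 0.98 ± 0.12. RBL1, a pocket protein, fell by 0.97 ± 0.12, while RBL2, the pocket protein of resting cells, rose by 0.56 ± 0.14.

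The remaining cyclins moved in both directions: of 18 tested, 7 fell and 3 rose. The share called was 55.6% beside 30.0% of all tested genes, with a median of -0.27. CCNG2, an unconventional cyclin of resting cells, rose by 1.39 ± 0.10, CCNI by 0.62 ± 0.08 and CCNG1, a relative of CCNG2, by 0.58 ± 0.08. CCNL2, a cyclin of RNA splicing, fell by 0.64 ± 0.10. Of the cyclins of S phase and mitosis, CCNA2 (-0.32 ± 0.07) and CCNB1 (-0.46 ± 0.08) fell and CCNB2 was at -0.12 ± 0.06 (limma adjusted p = 0.186); these 3 were chosen after their values were seen. Of 20 tested kinases of the CDK family besides CDK4 and CDK6, 4 fell and 3 rose, a share called of 35.0% beside 30.0% of all tested genes, with a median of -0.11. CDK1, the mitotic kinase, fell by 0.48 ± 0.06 and CDK9, a kinase of transcription elongation, by 0.51 ± 0.12, and CDKL3 rose by 0.92 ± 0.21.

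**Figure D5:**
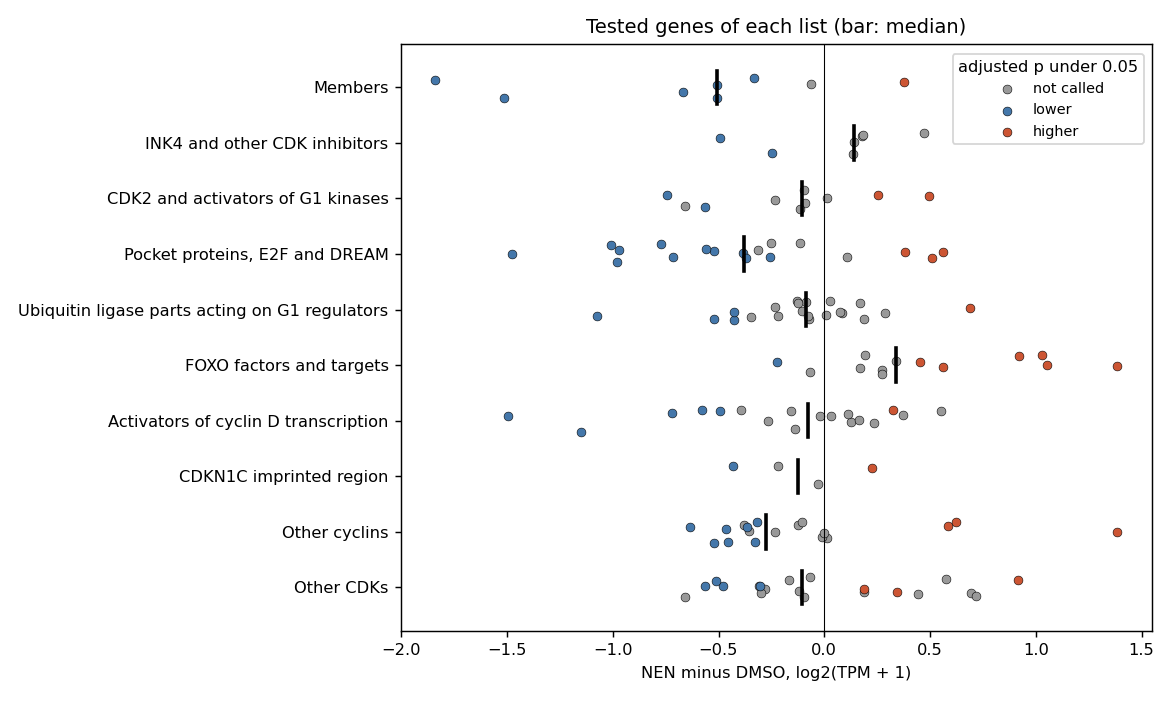
Difference in log2(TPM + 1) between NEN and DMSO (horizontal axis) for each tested gene of the members and of 9 related lists (rows), with blue for genes that fell, red for genes that rose, grey for genes not called and a black bar for the median. The members and the pocket protein, E2F and DREAM list have medians of -0.51 and -0.38, and the FOXO list of 0.34; some genes are in more than 1 list.

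Genes known to act on the transcription of the members, and targets of such factors, went different ways. Among activators of cyclin D transcription 5 of 18 fell and 1 rose, a share called of 33.3% beside 30.0% of all tested genes, with a median of -0.08. TCF7, a Wnt-pathway factor, fell by 1.50 ± 0.21, EGR1, an immediate early factor, by 1.15 ± 0.08 and JUN, an AP-1 subunit, by 0.58 ± 0.10, while MYCN was the one that rose. Of the FOXO factors and targets, 6 of 13 tested rose and 1 fell. The share called was 53.8% beside 30.0% of all tested genes, with a median of 0.34. Besides CCNG2, PIK3IP1, an inhibitor of PI3 kinase, rose by 1.03 ± 0.14 and FOXO4, a FOXO factor, by 0.92 ± 0.13. BCL2L11, the BH3 gene BIM, rose by 0.45 ± 0.10. The fall was that of TXNIP (-0.22 ± 0.06, limma adjusted p = 0.0333). FOXO3 was not called (0.27 ± 0.10, limma adjusted p = 0.0896), and FOXO1 and FOXO6 were below the filter. Whether FOXO factors act on any member in these cells was not tested.

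Among ubiquitin ligase parts that act on G1 regulators 4 of 21 fell and 1 rose, with a median of -0.09. Their share called was 23.8% beside 30.0% of all tested genes. SKP2, the receptor that targets p27 for breakdown, fell from 123 ± 8.6 to 91.2 ± 3.4 TPM (-0.43 ± 0.07, adjusted p = 0.00422), and its cofactor CKS1B was at 0.08 ± 0.05 (adjusted p = 0.236). DTL, the receptor that targets p21, fell by 1.08 ± 0.24, CUL3, a cullin that acts on cyclin E, by 0.52 ± 0.06, and FBXW7, the receptor of phosphorylated cyclin E, by 0.43 ± 0.12. USP2, a deubiquitinase of cyclin D1, rose by 0.69 ± 0.18. CCND1 shares 497 exon bases with LTO1, listed under its older symbol ORAOV1, on the opposite strand. ORAOV1 was lower as well, from 23.8 ± 3.3 to 14.0 ± 2.0 TPM (-0.72 ± 0.14, limma adjusted p = 0.00824). Here too reads from the shared bases could be assigned to either gene, so the falls of ORAOV1 and CCND1 may not be independent.

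The genes whose profile over the 6 libraries was most like that of a member are given as a description among genes that average 10 TPM or more. The 6 points fall in 2 groups, so genes that differ between the groups share that difference, and many profiles are alike: of 8073 genes compared (8074 for CCNE1), 601 had a Pearson r of at least 0.95 with CCND1, 377 with CCNE1, 271 with CCNE2 and 164 with CDKN1B, but 20 with CDK6. Closest to CCND1 were NCLN, PNO1 and PLXNA4 and to CCND3 SAR1A, OVCA2 and TMEM19. Closest to CCNE1 were FANCG, DDX11 and MRPL28 and to CCNE2 GK, C17orf89 and CARS2. CDK4 was most like PSMA4, TRA2A and HNRNPR, CDK6 like ASH1L, PTBP3 and PAPD4, CDKN1A like DPH7, GSTA4 and NCDN, and CDKN1B like SRGAP2B, MTA1 and USP32. For these 3 nearest genes of each member r was at least 0.9855 over the 6 libraries. No member was among the nearest 3 of another, but CCNE1 averaged under 10 TPM and so could not be.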

How the data were processed

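The submitters' processing notes name kallisto and hg19. Their versions, the transcript set and the strand setting are not stated there or in the labels. Per the labels' protocols, RNA was extracted with Trizol and libraries were made by polyA capture or rRNA removal, without saying which. The authors deposited TPM values, 1 column per library, for 35130 gene names. TPM holds no read counts, so no counting intervals are given.

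Genes averaging 1 TPM or more were tested on log2(TPM + 1), with a pseudocount of 1, in limma 3.58.1 (R 4.3.3; group only, trend and robust settings, two-sided, Benjamini-Hochberg over 12576 genes, threshold 0.05). The fit was tested on simulated data. The alternatives are given in the closing section. The members, lists and motifs were chosen with earlier results of these data known. All 10 members are named; from each list the text names up to 4 called genes with the smallest adjusted p, and for likeness the 3 nearest genes per member. Some genes were named outside that rule, after their values were seen. They are the INK4 genes, RBL2, FBXW7, CKS1B, CCNA2, CCNB1, CCNB2, the CDK-activating kinase, IGF2 and overlapping genes. FOXO1, FOXO3, FOXO6 and TXNIP were named in the same way. Of 217 list and marker symbols, 2 were not matched. Lists are described by counts and medians. The results of 1 list and 1 marker are not reported here. The plots come from matplotlib 3.10.9 (Python 3.11.15).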

Additional observations from a re-analysis of the deposited data

How the results depend on the processing

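The 6 falls (CCND1, CCND3, CCNE1, CCNE2, CDK4 and CDKN1A) kept sign and call in each of 15 alternatives: each library left out in turn, a replicate block, no filter, a minimum of 5 TPM, median-ratio scaling, quantile normalization, plain limma settings, pseudocounts of 0.1 and 5, and, chosen after seeing the data, a correction for transcript length and GC content. The count of members that rose was 0 or 1 on leaving out a library, 0 without NEN replicate 1 or NEN replicate 3, and 1 in the other alternatives. CDK6, not called in any, was at -0.116 to 0.0113 on leaving out a library, with the positive value without DMSO replicate 2, and at 0.00975 after quantile normalization. Over all genes, calls higher in NEN numbered 1699, and 1063 to 1554 on leaving out a library, the lowest without NEN replicate 1. Same-numbered libraries did not deviate together (r of 0.0117, -0.00755 and -0.0278), so the numbers were not taken as pairs; with the replicate block 6 members fell and 1 rose, and over all genes 1328 were higher and 1649 lower. The size of low genes depends on the pseudocount: CCNE1 was -0.97 and CCNE2 -1.27 with a pseudocount of 5, and -1.75 and -2.07 with 0.1. The sizes of the other falls varied too. CCND1 ran from -0.93 to -0.59, CCND3 from -0.68 to -0.45, CDK4 from -0.44 to -0.26 and CDKN1A from -0.65 to -0.44. Each of these was largest with the length and GC correction. Without a filter CDKN1C was at -0.03 (limma adjusted p = 0.932). TPM gives no depth, so counting error cannot be given.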
